A study of Rattus norvegicus with 12 samples.

Results

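The genes described here encode parts of the cardiac contractile apparatus: the sarcomere, the Z-disc that bounds it and the costamere that ties it to the cell membrane. They were taken as a list of 37 gene symbols, and a row of the deposited expression table counted as a member where its symbol matched exactly. The table held 35 of the 37 among its 17322 gene models, and all 35 passed the filter on low values that left 12983 models for testing. Titin (Ttn) and Xirp1 had no matching row and were not analysed here. The samples were whole hearts of Sprague Dawley rats at 15 weeks of age, sequenced as ribosomal RNA-depleted, strand-marking libraries. Dams called GDM (gestational diabetes mellitus) ate a high fat and sucrose diet, HFS, from before mating until the pups were weaned, whereas Lean dams ate a low fat diet, LF. Offspring of each kind of dam were assigned at random to HFS or LF at 3 weeks of age, which gave the groups Lean-LF, GDM-LF, Lean-HFS and GDM-HFS, named by dam and then by own diet. The dams' diabetes and their diet cannot be told apart in this design. Each group had 3 libraries here (the study planned 6 animals a group), and the labels do not say which animals were littermates or of which sex, so each p-value reflects only how far these libraries spread, which may be technical in part.

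In a sarcomere, myosin thick filaments slide along actin thin filaments, with the troponin complex and tropomyosin on the thin filament setting when myosin may bind. Thin filaments of neighbouring sarcomeres are anchored in the Z-disc by alpha-actinin, around which LIM-domain proteins and telethonin gather and take part in sensing stretch. Costameres couple the Z-disc through the integrin-vinculin and dystrophin-sarcoglycan complexes to the extracellular matrix, and inherited loss of several of these proteins causes cardiomyopathy. By role, 3 members belonged to the thick filament and M-band, 7 to the thin filament, 13 to the Z-disc, 9 to the costamere and membrane, and 3 to assembly and turnover of the sarcomere.

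All values below are scaled reads: the reads the deposited values hold for a gene, scaled between libraries by the median ratio over genes and not divided by gene length, so levels are compared between libraries and never between genes. Leaving out ribosomal RNA models, a library held between 9172734 and 14418970 reads. Differences are on the log2(scaled reads + 0.1) scale, on which a factor of 2 is a difference of 1, with the standard error from limma, and p-values were adjusted over all 12983 models by the Benjamini-Hochberg method with a threshold of 0.05. The 6 cardiomyocyte markers (Myh6 and Tnni3 among them) were detected in every library, as a heart label requires, whereas 3 of 8 markers of fast skeletal muscle were at 0 in at least 1 library. Coordinates are those of the table, on Rnor_6.0.

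The second Lean-HFS library, Lean-HFS 2, stood apart from the other 11. Of the 35 members, 17 had their lowest value of all 12 libraries there and 8 their highest, and the median deviation of the members from their own mean was -0.21 on the log2 scale, against -0.058 to 0.067 in the others. The summed level of the 6 cardiomyocyte markers was 96503 scaled reads there against 138046 to 184805 in the other 11 libraries, and its macrophage and fibroblast marker sums, 573 and 9689, were the highest of the 12. The 8 members highest there were Synpo2l, Pdlim5, Flnc, Pdlim1, Itgb1, Ilk, Csrp3 and Lmod2, and 5 of them are Z-disc members. Differences of members named below that moved by more than 1.5 times without it are given with and without it. The next most extreme library was GDM-HFS 1, with 7 members at their lowest.

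**Figure D1:**
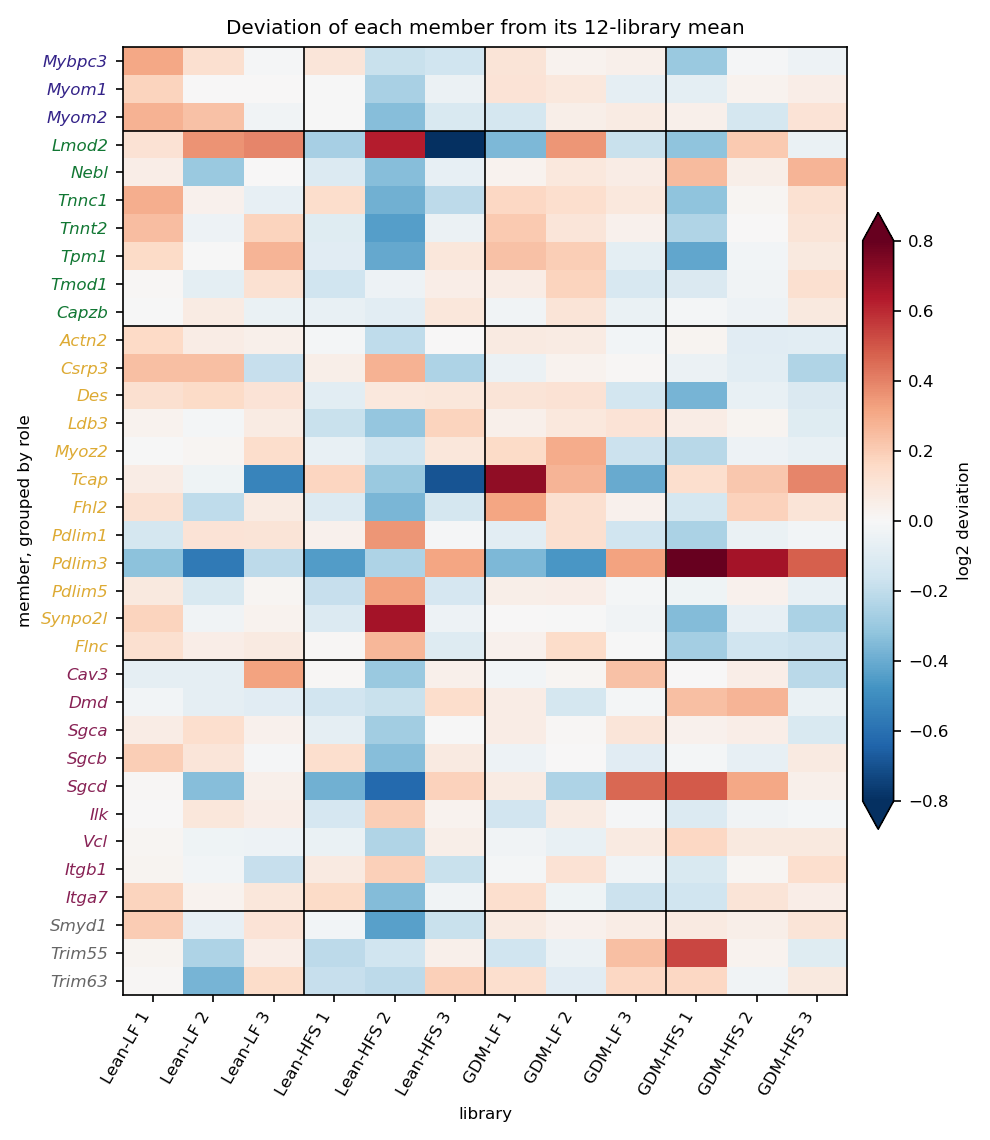
Log2 deviation (colour) of 34 members (all but the sparse Myot; rows, ordered by role) from their own mean over the 12 libraries (columns, by group). Over all 35 members, Lean-HFS 2 holds the lowest value of 17 and the highest of 8, and its median deviation of -0.21 is the lowest of the 12 libraries.

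No member passed the threshold in any of the 7 comparisons made. These were GDM against Lean averaged over offspring diets, HFS against LF averaged over dams, the interaction of the 2 factors, and the 4 comparisons between single groups, which share libraries with each other. Among all models, 0.0616% passed for GDM against Lean, 0.0308% for GDM-LF against Lean-LF and 0.0154% for GDM-HFS against Lean-HFS, and 0% passed in each of the other comparisons, so the count of 0 members stands beside backgrounds at or near 0. In count models on the recovered whole reads, edgeR's quasi-likelihood test and DESeq2 also called 0 members in every comparison. At an unadjusted limma p under 0.05 there were 5 members for GDM against Lean (all models 11.2%), 3 for HFS against LF (7.92%), 1 for the interaction (3.01%) and 0 for GDM-LF against Lean-LF (5%). The remaining comparisons gave 7 members for GDM-HFS against Lean-HFS (9.64%), 3 for Lean-HFS against Lean-LF (5.21%) and 2 for GDM-HFS against GDM-LF (5.57%). In the same order edgeR gave 6, 5, 0, 0, 6, 4 and 2 members at an unadjusted p under 0.05, and DESeq2 8, 7, 2, 0, 9, 6 and 3. These limma counts depended on single libraries. With each library left out in turn, the count for GDM against Lean ran from 3 (without Lean-LF 2 or GDM-LF 1) to 10 (without Lean-HFS 3), and it was 10 in the values as deposited. For HFS against LF it ran from 1 (without Lean-LF 1 or GDM-LF 1) to 6 (without Lean-HFS 1 or GDM-LF 3), and for GDM-HFS against Lean-HFS the lowest count was 2, when Lean-HFS 2 was left out, and the highest 11, when Lean-HFS 3 was. For Lean-HFS against Lean-LF it ran from 0 (without Lean-LF 1) to 6 (without Lean-HFS 1), with 1 without Lean-HFS 2 and 0 as deposited. For GDM-HFS against GDM-LF it ran from 1 (without GDM-LF 2 or GDM-HFS 1) to 4 (without GDM-LF 3). It stayed between 0 and 3 for the interaction (3 without Lean-LF 2 or Lean-HFS 3) and between 0 and 1 for GDM-LF against Lean-LF (1 without GDM-LF 3).

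The members as a list had small median differences. For GDM against Lean, 20 of 35 estimates were above 0 and 15 below (49.6% of all models were below), or 7 below in the values as deposited, with a median of 0.024 beside 0.0015 over all models. For HFS against LF, 10 were above and 25 below 0 (47.8% of all models below), with a median of -0.076 beside 0.0083 over all models. That split depended on the scaling: in the values as deposited the median of all models was 0.11, and 16 of the 35 HFS minus LF estimates were below 0 while 27 of 35 lay below the median of all models, the same count as after scaling. Within Lean offspring, 28 of the 35 HFS estimates were below 0 (48.9% of all models; median -0.0997 beside 0.0049), or 17 of 35 in the values as deposited, and without Lean-HFS 2 there were 27. Within GDM offspring, 21 were below 0 (48.7% of all models; median -0.04 beside 0.0054), or 12 as deposited. For GDM-LF against Lean-LF, 17 were below 0 (50.4% of all models; median 0.0037 beside -0.0019), or 4 as deposited. For GDM-HFS against Lean-HFS, 11 were below 0 (49.1% of all models; median 0.075 beside 0.0052), or 6 as deposited, and without Lean-HFS 2 there were 16, with a median of 0.027. For the interaction, 24 estimates were above 0 and 11 below, with a median of 0.049 beside 0.0056 over all models. The shares of all models are those after scaling, and the counts as deposited carry a shift of all models. As deposited, 15 of 35 members lay below the median of all models (0.11) for GDM against Lean. That count was 17 for GDM-LF against Lean-LF, 11 for GDM-HFS against Lean-HFS, 28 within Lean offspring and 23 within GDM offspring. Each was the same after scaling.

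Of the 33 members with a mean of at least 100 scaled reads, 30 had a 95% interval of the GDM against Lean difference that lay within 0.5 of 0 on the log2 scale, and 31 had such an interval for HFS against LF. For the comparisons of 3 libraries against 3 the count ran from 25 for Lean-HFS against Lean-LF to 30 for GDM-LF against Lean-LF, and for the interaction it was 18. The median standard error of the members was 0.083 for the averaged comparisons, beside 0.12 over all models. The remaining 2 members were low: the thin filament nucleator Lmod2 rested on 26 to 82 reads a library in this table, and the Z-disc protein Myot on 0 to 6. The deposited table lists 2 copies of the Lmod2 model and 3 of the Myot model, and 1 for each other member. Whether this lowered their values was not tested, so their low level here is uncertain.

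**Figure D2:**
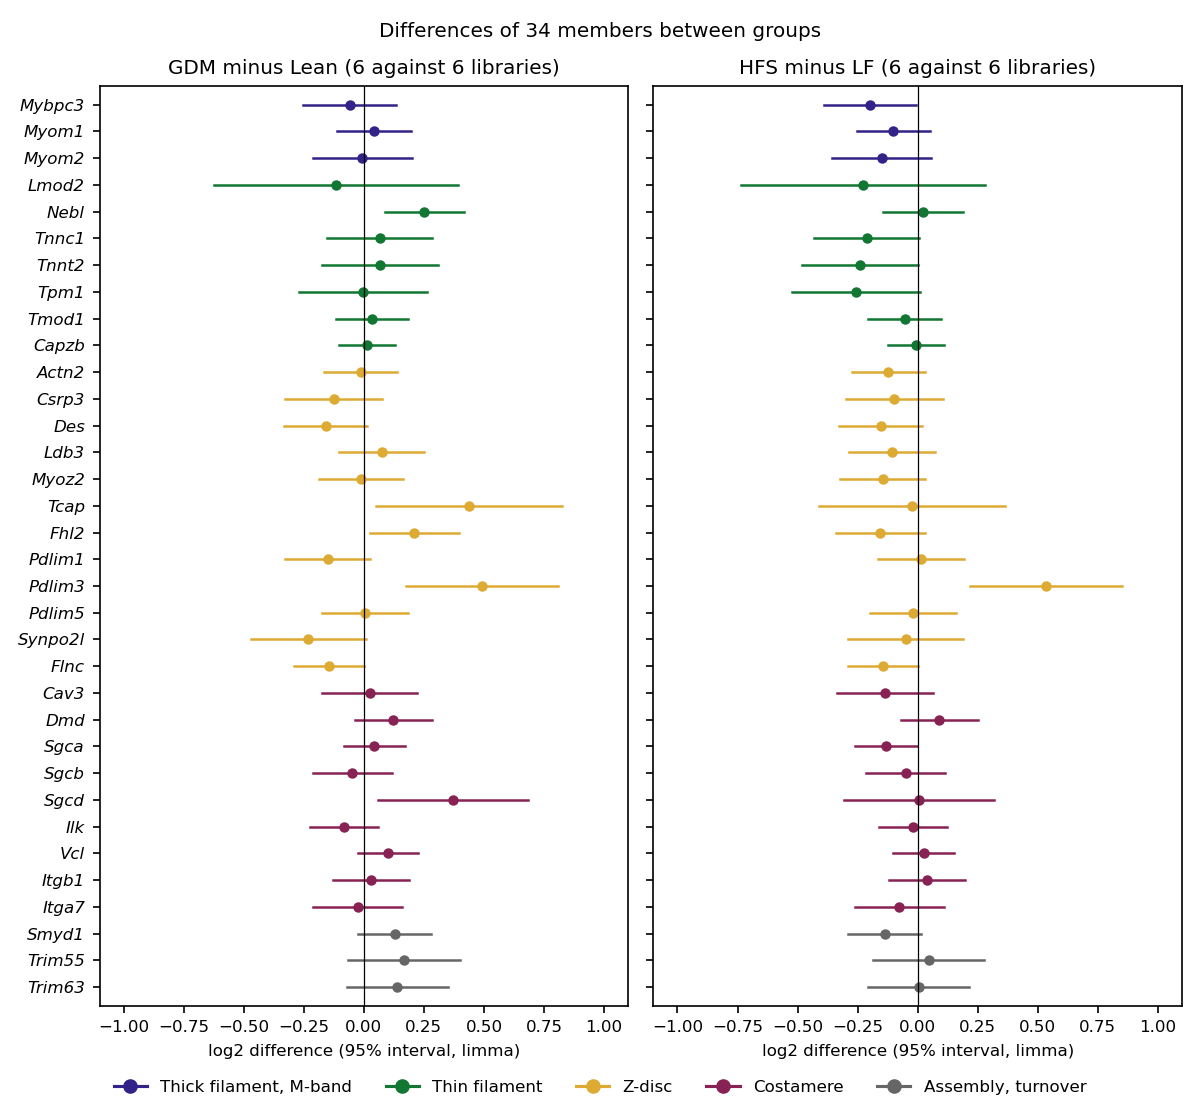
Log2 difference of 34 members (all but the sparse Myot), coloured by role, as points with 95% intervals from limma, for GDM against Lean (averaged over offspring diets) and HFS against LF (averaged over dams). Pdlim3 has the highest estimate among members with at least 100 scaled reads in both panels, 0.49 and 0.53, and no member passed the adjusted threshold.

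The 3 thick filament and M-band members had HFS minus LF estimates below 0, in the scaled and in the deposited values, and none passed the test. Mybpc3 (chromosome 3, 79940561 to 79958730) encodes cardiac myosin-binding protein C, which regulates the access of myosin heads to the thin filament. Mybpc3 measured 10136, 8915 and 8104 scaled reads in the Lean-LF libraries, 8778, 8330.3 and 8418 in GDM-LF, 8729, 7216 and 7311 in Lean-HFS, and 6664, 8113 and 7932 in GDM-HFS. All 3 GDM-HFS values were below all 3 GDM-LF values, whereas the Lean groups overlapped at Lean-HFS 1. The averaged HFS minus LF difference for Mybpc3 was -0.20 ± 0.09 (SE; limma adjusted p = 0.621). Myom2 (chromosome 16, 79587640 to 79671719), an M-band protein that crosslinks thick filaments, had 12528, 12109 and 10125 scaled reads in Lean-LF, 9349, 10634 and 10772 in GDM-LF, 10299.8, 8152 and 9467 in Lean-HFS, and 10622, 9369 and 11142 in GDM-HFS. Its Lean-HFS minus Lean-LF difference was -0.32 ± 0.14 (limma adjusted p = 0.881) and its GDM-HFS minus GDM-LF estimate was 0.02. The interaction for Myom2 was 0.33 ± 0.19 (limma adjusted p = 0.999), and without Lean-HFS 2 it was 0.24. Myom1, the related M-band protein myomesin, ranged from 3335 to 4520 with its lowest value in Lean-HFS 2, and its Lean-HFS libraries were all below its Lean-LF libraries.

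Thin filament members had HFS minus LF estimates below 0 in 6 of 7 cases (4 of 7 in the values as deposited), with a median of -0.21, and 0 of 7 had an unadjusted limma p under 0.05. Tnnt2 (chromosome 13, 52667969 to 52680990) encodes cardiac troponin T, which binds the troponin complex to tropomyosin. Tnnt2 measured 20942, 17183 and 20011 scaled reads in Lean-LF, 20418, 18891 and 18085 in GDM-LF, 16543, 13053 and 17087 in Lean-HFS, and 14946, 17735 and 18974 in GDM-HFS. Every Lean-HFS library was below every Lean-LF library, while GDM-HFS 3 lay within the GDM-LF range. The averaged HFS minus LF difference of Tnnt2 was -0.24 ± 0.11 (limma adjusted p = 0.63), and -0.18 without Lean-HFS 2. Its Lean-HFS minus Lean-LF difference was -0.32, or -0.20 without Lean-HFS 2. Tpm1, alpha-tropomyosin, ranged from 11614 in GDM-HFS 1 to 18711 in Lean-LF 3, and Tnnc1, the calcium-binding troponin subunit, ranged from 1663 in Lean-HFS 2 to 2649 in Lean-LF 1. Nebl (chromosome 17, 84141014 to 84247038) encodes nebulette, a nebulin-like protein that runs from the Z-disc along the thin filament. Nebl had 2174, 1704 and 2104 scaled reads in Lean-LF, 2138, 2226 and 2189.8 in GDM-LF, 1947, 1659 and 2005 in Lean-HFS, and 2504, 2171 and 2533 in GDM-HFS. Of the 6 GDM libraries, 4 exceeded every Lean library and the other two, GDM-LF 1 and GDM-HFS 2, lay below Lean-LF 1 alone. The GDM minus Lean difference of Nebl was 0.25 ± 0.08 (limma adjusted p = 0.255), that within HFS was 0.36 ± 0.11 (limma adjusted p = 0.339), and that within LF was 0.14 ± 0.11 (limma adjusted p = 0.981), or 0.030 without Lean-LF 2. Capzb, the beta subunit of the protein that caps thin filaments at the Z-disc, was the steadiest member, from 579.5 to 659 scaled reads. Tmod1, which caps the other end, ranged from 1034 to 1307, and a model of Tstd2 on overlapping sequence held 24.5% of its value.

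The promoters of 4 members are shown because Tnnt2 and Tpm1 varied together across libraries while the other two carry the same short element and did not all follow them. Each is the 250 bases before the start of a RefSeq transcript on GRCr8, given 5′ to 3′ on the gene's strand. Capitals mark matches to the M-CAT element, CATTCCT on either strand, which is bound by TEAD factors, and in Fhl2 also a CArG box and a run of overlapping M-CAT, MEF2 box and TATAAA (minus strand) matches. The windows lie at chr13:49818873-49819122 on the plus strand for Tnnt2, chr8:76543416-76543665 on the minus strand for Tpm1, chr9:52954541-52954790 on the minus strand for Fhl2, and chr4:58999297-58999546 on the plus strand for Flnc.
Tnnt2: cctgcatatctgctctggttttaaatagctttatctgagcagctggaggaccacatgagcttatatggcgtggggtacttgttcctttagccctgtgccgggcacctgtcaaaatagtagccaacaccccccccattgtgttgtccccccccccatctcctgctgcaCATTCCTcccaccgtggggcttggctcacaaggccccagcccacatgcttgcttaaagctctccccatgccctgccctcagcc
Tpm1: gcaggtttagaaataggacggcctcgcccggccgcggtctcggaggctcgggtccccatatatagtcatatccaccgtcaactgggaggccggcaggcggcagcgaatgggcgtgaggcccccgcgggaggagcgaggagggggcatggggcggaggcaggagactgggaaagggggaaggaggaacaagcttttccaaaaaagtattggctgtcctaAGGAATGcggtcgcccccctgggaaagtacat
Fhl2: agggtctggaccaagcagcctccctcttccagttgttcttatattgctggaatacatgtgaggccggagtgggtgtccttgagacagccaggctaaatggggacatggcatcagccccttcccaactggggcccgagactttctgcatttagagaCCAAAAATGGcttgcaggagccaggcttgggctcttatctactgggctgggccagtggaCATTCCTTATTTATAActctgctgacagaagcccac
Flnc: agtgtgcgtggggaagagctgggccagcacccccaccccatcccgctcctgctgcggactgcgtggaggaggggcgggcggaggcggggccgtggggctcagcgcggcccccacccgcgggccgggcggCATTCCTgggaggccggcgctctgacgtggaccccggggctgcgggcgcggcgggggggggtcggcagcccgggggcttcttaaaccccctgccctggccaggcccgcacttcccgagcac
The M-CAT match ended 77 bases before the start in Tnnt2, 26 in Tpm1, 30 in Fhl2 and 115 in Flnc. RefSeq promoters were matched for 27 of the 35 members, and M-CAT was found in 5 of these 27 (also Itgb1) and in 4.35% of all 33469 promoters of the same length. For each element a member counted if any of its promoters matched (31 promoters for 27 members). The shares over all are per promoter, so the units differ. Tnnt2 and Fhl2 each had a further promoter, not shown, without an M-CAT match. The CArG box was found in 4 of 27 (1.5% of all), the MEF2 box in 5 of 27 (2.96%) and TATAAA in 4 of 27 (12.9%), both strands searched. Among the 5 members with M-CAT, Tnnt2 and Fhl2 had their lowest value in Lean-HFS 2 and Tpm1 its second lowest, whereas Flnc and Itgb1 had their highest value there. The promoters were chosen after the values had been seen, and a match is a description of letters only.

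Z-disc members held the highest and the lowest GDM minus Lean estimates of the list, 0.49 and -0.23. The lowest was that of Synpo2l, which measured 1449.8 scaled reads in Lean-HFS 2 and 719 to 1032 in the other libraries. How far Synpo2l rested on Lean-HFS 2 is given below for GDM-HFS against Lean-HFS. For HFS against LF the lowest estimate of the Z-disc members was -0.16, and that of the thin filament members was -0.26. Pdlim3 (chromosome 16, 49543144 to 49574321) encodes a PDZ and LIM domain protein that binds alpha-actinin-2 and is also present in smooth muscle. Pdlim3 measured 405, 344 and 440.0 scaled reads in Lean-LF, 396, 368 and 636 in GDM-LF, 373, 428 and 632 in Lean-HFS, and 906, 806 and 708 in GDM-HFS. All 3 GDM-HFS libraries were above the other 9, and Lean-HFS 3 and GDM-LF 3 were each well above the remaining libraries of their groups. The group means were 396 ± 48.7 (SD, n = 3) in Lean-LF, 467 ± 147 in GDM-LF, 478 ± 136 in Lean-HFS and 807 ± 98.8 in GDM-HFS. The differences for Pdlim3 were 0.49 ± 0.15 for GDM against Lean (95% interval 0.18 to 0.81; limma adjusted p = 0.246) and 0.53 ± 0.15 for HFS against LF (0.22 to 0.85; limma adjusted p = 0.421). GDM-HFS differed from Lean-HFS by 0.79 ± 0.21 (limma adjusted p = 0.309) and from GDM-LF by 0.83 ± 0.21 (limma adjusted p = 0.761), and the interaction was 0.59 ± 0.29 (limma adjusted p = 0.999). Without Lean-HFS 2 the Pdlim3 difference between GDM-HFS and Lean-HFS was 0.72 (limma adjusted p = 0.559).

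Atrial marker genes summed to 5363 scaled reads or more in each of the 5 libraries with the highest Pdlim3, and also in Lean-HFS 2, where Pdlim3 was at 428 and Nppa, the natriuretic peptide gene that also responds to stress in the ventricle, made up 4960.2 of the sum of 6216. Without Nppa, a step chosen after seeing the values, the other 7 markers summed to 1256 in Lean-HFS 2. The 5 libraries with the highest sums, 2454 to 7679, were then the 5 with the highest Pdlim3. Below these 5 the orders differed. GDM-LF 2 ranked 6 for the sum and 11 for Pdlim3, Lean-LF 3 ranked 11 and 6, and Lean-LF 2 ranked 8 and 12. The summed level of 8 atrial markers was 1534 to 2911 scaled reads in Lean-LF, 1053, 4765 and 11451 in GDM-LF, 3418, 6216 and 6031 in Lean-HFS, and 18639, 6051 and 5363 in GDM-HFS. The sum of 6 smooth muscle markers was 1008 to 1303 in Lean-LF, 1063, 1395 and 1045 in GDM-LF, 1162, 960 and 1357 in Lean-HFS, and 1341, 2191 and 3000.2 in GDM-HFS. The GDM minus Lean estimates were above 0 for 8 of 8 atrial markers (median 0.92) and 6 of 6 smooth muscle markers (median 0.59), and none of these markers was at 0 in any library. The HFS minus LF estimates were above 0 for 8 of 8 atrial markers (median 1.14) and 5 of 6 smooth muscle markers (median 0.72), and below 0 for 6 of 6 cardiomyocyte markers (median -0.20), or 5 of 6 in the values as deposited. Other marker lists leaned to 1 sign as well. For GDM against Lean, 6 of 6 ventricular markers (median -0.16; 4 of 6 as deposited) and 6 of 6 macrophage markers (median -0.41) were below 0, as were 5 of 6 erythroid markers (median -0.46). For HFS against LF, 5 of 6 ventricular markers (median -0.22; 4 of 6 as deposited) and 6 of 6 erythroid markers (median -0.43) were below 0, and 6 of 6 adipocyte markers (median 1.58) were above 0. The adipocyte estimates ran from 0.05 to 2.40, and 2 of these 6 markers were at 0 in at least 1 library. Plin1 and Adipoq were at most 46 and 28 scaled reads in any library, whereas Fabp4 was at 565 to 892. The part of tissue makeup in the Pdlim3 result and in the other diet estimates was not tested, and in whole hearts fewer cells of a type and less RNA per cell cannot be told apart.

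**Figure D3:**
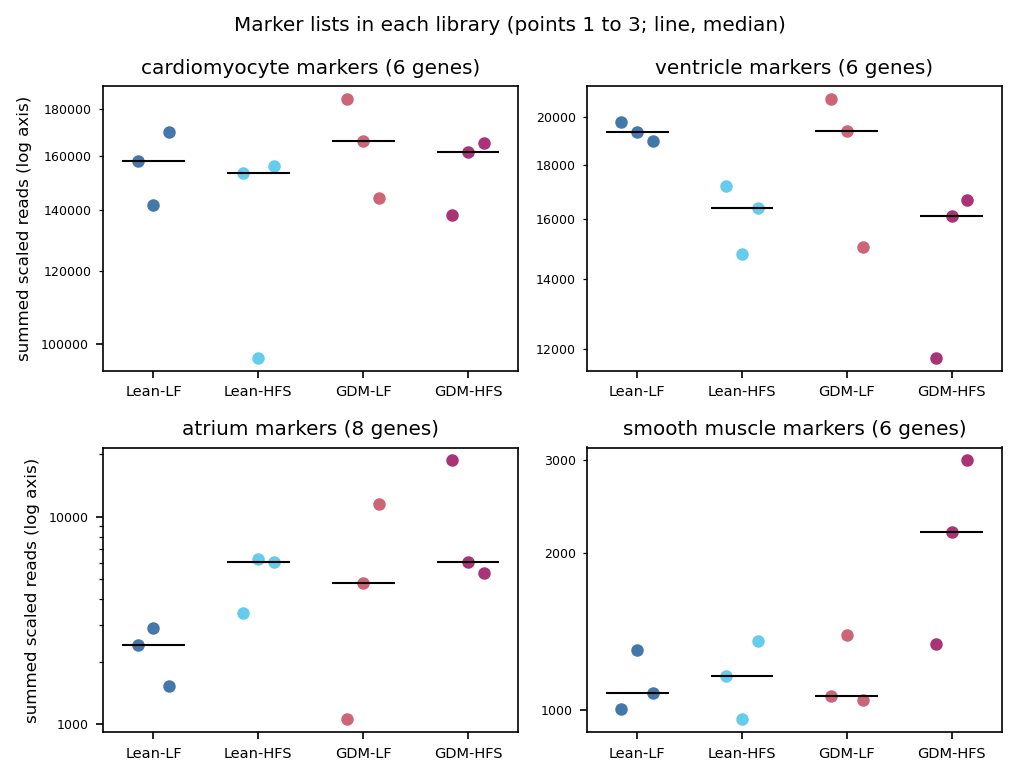
Summed scaled reads (log axes) of 4 marker lists, cardiomyocyte, ventricle, atrium and smooth muscle, in each of the 12 libraries by group, with a line at the group median. The atrial sum is highest in GDM-HFS 1 at 18639 and GDM-LF 3 at 11451, and the smooth muscle sum is highest in GDM-HFS 3 at 3000.2.

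Tcap (chromosome 10, 86337703 to 86338861) encodes telethonin, which caps the end of titin at the Z-disc. Tcap had 981, 920.2 and 653 scaled reads in Lean-LF, 1542, 1139 and 711 in GDM-LF, 1060.2, 767 and 584 in Lean-HFS, and 1033, 1095 and 1234 in GDM-HFS. The spread within GDM-LF alone covered nearly the whole range of the gene, and the GDM minus Lean difference was 0.44 ± 0.18 (limma adjusted p = 0.395). Fhl2 (chromosome 9, 49921053 to 49950071), a LIM-only protein of the Z-disc and I-band, had 3247, 2596 and 3128 in Lean-LF, 3723, 3268 and 3063 in GDM-LF, 2769, 2319 and 2713 in Lean-HFS, and 2707, 3394 and 3216 in GDM-HFS. Its GDM minus Lean difference was 0.21 ± 0.09 (limma adjusted p = 0.395), with overlapping groups. Flnc (chromosome 4, 56711086 to 56738779) encodes filamin C, a muscle actin crosslinker at Z-discs and costameres. Flnc had 2322, 2201 and 2231 in Lean-LF, 2169.6, 2345 and 2119.7 in GDM-LF, 2132, 2555 and 1974 in Lean-HFS, and 1753, 1895 and 1885 in GDM-HFS. The 3 GDM-HFS libraries were the lowest of the 12 for Flnc. The Flnc difference of GDM-HFS from GDM-LF was -0.26 ± 0.10 (limma adjusted p = 0.858) and that from Lean-HFS was -0.26 ± 0.10 (limma adjusted p = 0.44), the latter -0.15 without Lean-HFS 2. For HFS against LF the Flnc difference was -0.14 ± 0.07 (limma adjusted p = 0.63), and -0.20 without Lean-HFS 2 (limma adjusted p = 0.421). The interaction for Flnc was -0.23, or -0.13 without Lean-HFS 2.

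Desmin, the intermediate filament protein that links Z-discs (Des; chromosome 9, 82556582 to 82564287), measured 6062, 6177 and 5985 scaled reads in Lean-LF, 5973, 6029 and 5018 in GDM-LF, 5243, 5878 and 5911 in Lean-HFS, and 4285, 5329 and 5128 in GDM-HFS. Its GDM-HFS minus GDM-LF difference was -0.21 ± 0.11 (limma adjusted p = 0.874), or -0.11 without GDM-HFS 1, and its 3 Lean-HFS libraries were below its 3 Lean-LF libraries. Myoz2 (chromosome 2, 227180887 to 227207584), calsarcin-1, binds calcineurin at the Z-disc and had 2092, 2120.4 and 2308 in Lean-LF, 2327, 2577 and 1862 in GDM-LF, 2011, 1876 and 2233 in Lean-HFS, and 1798, 2038 and 2012 in GDM-HFS. The GDM-HFS minus GDM-LF difference of Myoz2 was -0.20 ± 0.12 (limma adjusted p = 0.905), or -0.097 without GDM-LF 2 and -0.33 without GDM-LF 3. Synpo2l, an actinin-binding Z-disc protein, ranged from 719 in GDM-HFS 1 to 1449.8 in Lean-HFS 2, and its GDM-HFS minus Lean-HFS difference of -0.39 became -0.15 without Lean-HFS 2. Actn2, alpha-actinin-2 itself, ranged from 5840.3 to 7505. Ldb3, Csrp3, Pdlim1 and Pdlim5, further LIM or PDZ-LIM proteins of the Z-disc, had ranges of 4107 to 5759, 896 to 1286, 199 to 304 and 2129 to 3029.9.

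**Figure D4:**
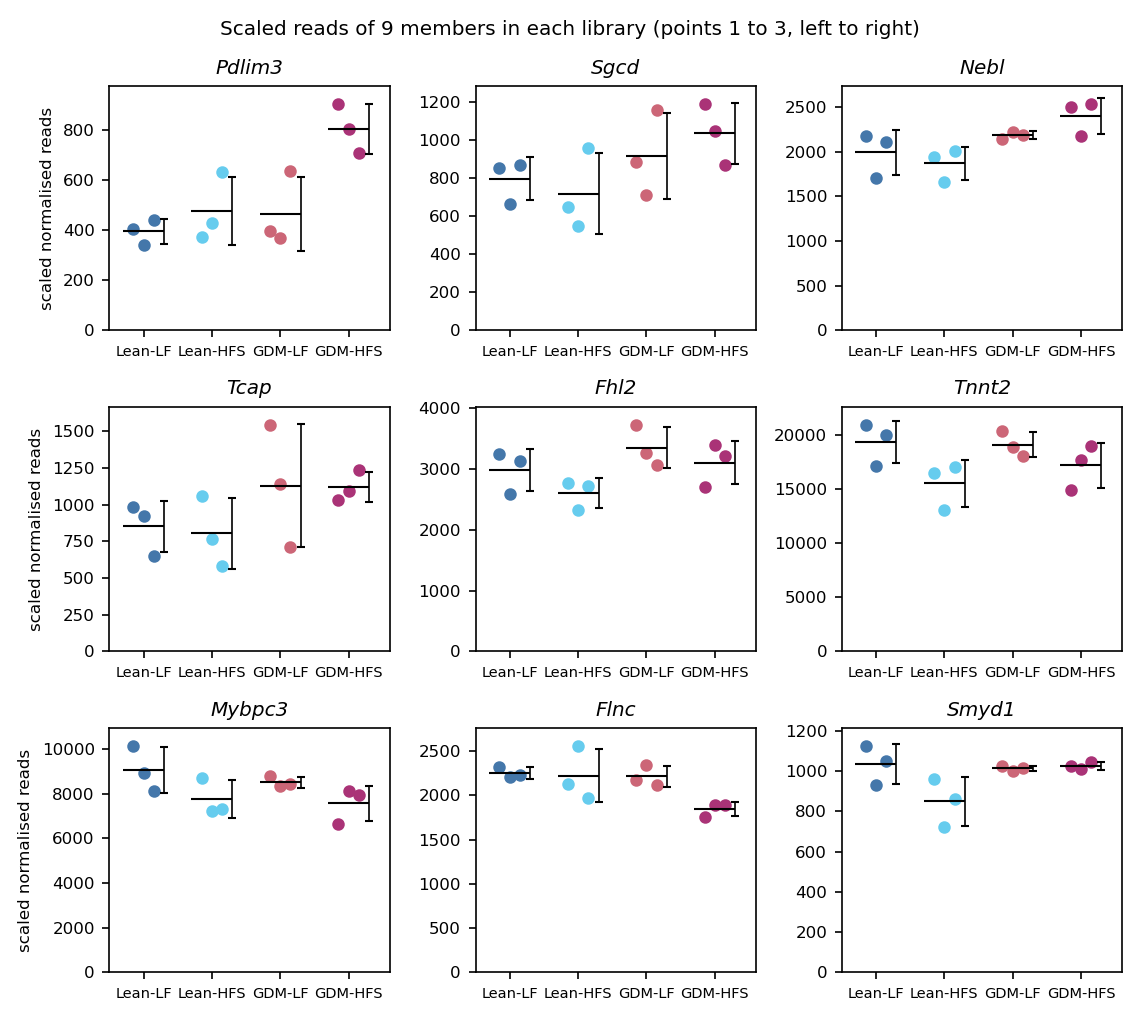
Scaled reads of 9 members by group, with points for the libraries, horizontal lines for group means and vertical bars for 1 SD on either side (n = 3). The 3 GDM-HFS libraries of Pdlim3, at 708 to 906, are above the other 9, and those of Flnc, at 1753 to 1895, are below the other 9.

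Of the 9 costamere and membrane members, 5 had an HFS minus LF estimate below 0, or 2 in the values as deposited, and the 3 sarcoglycans differed in which libraries were high. Sgcd (chromosome 10, 32062946 to 32471454) encodes delta-sarcoglycan of the dystrophin complex, which is present in cardiac and in smooth muscle. Sgcd measured 853, 667 and 872 scaled reads in Lean-LF, 884, 712 and 1161.5 in GDM-LF, 649, 549.5 and 960.0 in Lean-HFS, and 1191, 1048 and 871 in GDM-HFS. High values fell in libraries that were also high for Pdlim3, and the groups overlapped. The Sgcd difference was 0.37 ± 0.15 for GDM against Lean (limma adjusted p = 0.375) and 0.56 ± 0.21 for GDM-HFS against Lean-HFS (limma adjusted p = 0.44), the latter 0.38 without Lean-HFS 2. Sgca (chromosome 10, 82770905 to 82785142), alpha-sarcoglycan, had 352, 372 and 346 in Lean-LF, 352, 341 and 363 in GDM-LF, 321, 279 and 337 in Lean-HFS, and 346, 351 and 311.5 in GDM-HFS. The 3 Lean-HFS libraries of Sgca were below the 3 Lean-LF libraries, with a difference of -0.20 ± 0.08 (limma adjusted p = 0.881) that was -0.12 without Lean-HFS 2, and the averaged HFS minus LF difference was -0.13 ± 0.06 (limma adjusted p = 0.621), or -0.091 without that library. Sgcb (chromosome 14, 37113194 to 37128623), beta-sarcoglycan, had 882, 824.5 and 766 in Lean-LF, 749, 771 and 726 in GDM-LF, 846, 608 and 809.7 in Lean-HFS, and 762, 737 and 810.1 in GDM-HFS. Its GDM-LF minus Lean-LF difference was -0.14 ± 0.11 (limma adjusted p = 0.981), or -0.087 without Lean-LF 1.

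Vcl (chromosome 15, 3455211 to 3544685), vinculin, links integrin adhesions to actin and measured 1389, 1347 and 1340.4 scaled reads in Lean-LF, 1349, 1323 and 1445 in GDM-LF, 1326, 1166 and 1421 in Lean-HFS, and 1541, 1452 and 1456 in GDM-HFS. All 3 GDM-HFS libraries of Vcl were above the other 9, and its interaction was 0.18 ± 0.12 (limma adjusted p = 0.999), or 0.098 without Lean-HFS 2. Dmd (chromosome X, 53360839 to 53517152), dystrophin, was covered by a model of only part of the gene and had 350.0, 338 and 334 in Lean-LF, 369.9, 322 and 351 in GDM-LF, 319.5, 313 and 392 in Lean-HFS, and 419.8, 428 and 342 in GDM-HFS. The GDM-HFS minus GDM-LF difference of Dmd was 0.18 ± 0.11 (limma adjusted p = 0.899), or 0.29 without GDM-HFS 3, with overlapping groups. The caveolin Cav3 ranged from 148 to 227.5, the laminin receptor subunits Itgb1 and Itga7 from 1254 to 1626 and from 829.5 to 1195, and the integrin-linked kinase gene Ilk from 185 to 235. The value of Ilk is uncertain, since a Taf10 model on the opposite strand that overlaps it held 30.8% of its value and strand use in counting was not given in the sources used here.

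Members of assembly and turnover numbered 3. Smyd1 (chromosome 4, 99074535 to 99125111) encodes a muscle methyltransferase needed for myofibril assembly, and had 1125, 931 and 1053 scaled reads in Lean-LF, 1025, 999 and 1018 in GDM-LF, 963, 723 and 863 in Lean-HFS, and 1024, 1009 and 1047 in GDM-HFS. The 6 GDM libraries of Smyd1 lay within a narrow band and the Lean libraries spread on both sides of it. Smyd1 was the member with the smallest interaction p, at 0.31 ± 0.14 (limma adjusted p = 0.999), with differences of -0.29 ± 0.10 for Lean-HFS against Lean-LF (limma adjusted p = 0.881) and 0.28 ± 0.10 for GDM-HFS against Lean-HFS (limma adjusted p = 0.414). Without Lean-HFS 2 these 3 values were 0.20, -0.18 and 0.17. The ubiquitin ligases of the sarcomere Trim55 and Trim63, known as MuRF2 and MuRF1, ranged from 481 to 827 and from 185 to 274, and Trim55 had its highest value in GDM-HFS 1.

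Counted by library, no member separated all 6 GDM from all 6 Lean libraries (0.793% of all models did) or all 6 HFS from all 6 LF libraries (0.347%), and 0 separated GDM-LF from Lean-LF (11%). In GDM-HFS against Lean-HFS, 6 of 35 members had libraries that did not overlap (13.8% of all models), with Pdlim3, Nebl, Smyd1 and Vcl higher and Flnc and Pdlim1 lower. In Lean-HFS against Lean-LF there were 6 (10% of all models), with Tnnt2, Sgca, Myom1, Des and Actn2 lower and the sparse Myot higher. In GDM-HFS against GDM-LF there were 6 (11.4% of all models), with Csrp3, Flnc, Synpo2l and Mybpc3 lower and Pdlim3 and Vcl higher.

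Within groups, some members tracked each other from library to library. The log2 values with group means removed were correlated over the 12 libraries for all 595 pairs of members, with a median Pearson r of 0.073. Of these pairs 322 had an r above 0, and the lowest r was -0.91, so strong opposite pairs were present too. The highest was Pdlim5 with Synpo2l (r = 0.96, Spearman rho = 0.895), followed by Mybpc3 with Tnnc1 (r = 0.94, rho = 0.965) and Tnnt2 with Tpm1 (r = 0.91, rho = 0.797). Leaving out the 2 libraries farthest from the median gave r = 0.85, 0.90 and 0.82 for the same pairs. Pdlim3 with Sgcd, named here after its value was seen, gave r = 0.90. These are descriptions over libraries that share a scaling and that include Lean-HFS 2.

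**Figure D5:**
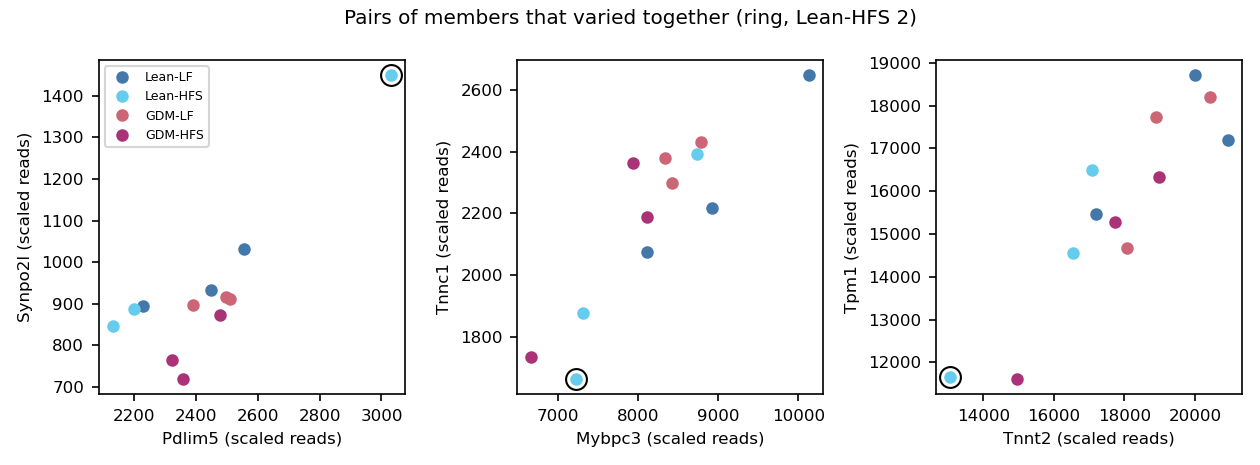
Scaled reads of the 3 pairs of members with the highest Pearson r, each point a library coloured by group, with a ring around Lean-HFS 2. With group means removed, the pairs Pdlim5 with Synpo2l, Mybpc3 with Tnnc1 and Tnnt2 with Tpm1 have r of 0.96, 0.94 and 0.91.

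Further genes of the same structures were taken as 4 lists, and no gene of any of them passed the threshold in either averaged comparison. Counts above and below 0 are given after scaling, and in the values as deposited the estimates below 0 numbered, for the sarcomere, Z-disc, costamere and assembly lists in turn, 5, 4, 2 and 7 for GDM against Lean and 12, 7, 3 and 7 for HFS against LF. The counts as deposited carry the shift of the median of all models to 0.11 in both comparisons. For GDM against Lean, 11 of 21 tested sarcomere genes outside the list had estimates above 0, and the smallest p was that of Tpm2, the beta-tropomyosin also found in smooth muscle, at 0.68 ± 0.14 (limma adjusted p = 0.116). Of 25 Z-disc and titin-binding genes, 16 were above 0, with Nexn at 0.21 (limma adjusted p = 0.242) and the stretch-responsive Ankrd1 at -0.30 (limma adjusted p = 0.398). Of 29 costamere and dystrophin complex genes, 14 were above 0, with the integrin subunit Itga6 at -0.20 (limma adjusted p = 0.207). Of 25 assembly and turnover genes, 18 were below 0, with the small heat shock protein Hspb8 at -0.21 (limma adjusted p = 0.242) and its partner Bag3 at -0.24 (limma adjusted p = 0.321). For HFS against LF, 14 of the 21 sarcomere genes were below 0, with the ventricular light chain Myl2 at -0.36 ± 0.10 (limma adjusted p = 0.421) and cardiac troponin I, Tnni3, at -0.34 (limma adjusted p = 0.534), while Tpm2 was at 0.60 (limma adjusted p = 0.389). Estimates below 0 numbered 12 of 25 for Z-disc genes, 14 of 29 for costamere genes and 17 of 25 for assembly genes. The Z-disc genes had a median of 0.033, and 5 of the 25 had an unadjusted limma p under 0.05 (all models 7.92%). Of these 5, 4 were above 0, and 1, the chaperone Cryab, was below at -0.31 ± 0.07 (limma adjusted p = 0.389).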

How the data were processed

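Total RNA was measured in 12 whole hearts, 3 a group. Per the labels' protocols and the submitters' processing notes, reads were trimmed and aligned to Rnor_6.0 with STAR 2.5.1b, and the notes also name HOMER 4.9, with no role given. The deposited table calls its values FPKM, but each is a signal equal to a whole number of reads times a step of its library (0.184 to 0.262), without division by length. Whole reads were recovered by dividing by that step (100.0% of low values came out whole within 0.1). Among the smallest recovered values above 0, 67.8% to 73.6% a library were even numbers. The reason was not tested, and the recovered reads may not be the independent counts that edgeR and DESeq2 take them to be.

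Values were scaled by median-of-ratios factors (0.886 to 1.15), and models with a mean of at least 0.5 scaled reads were kept. limma 3.58.1 (R 4.3.3) was fitted to log2(scaled + 0.1) with 4 group means and a trend, and p-values were adjusted over 12983 models. The method was also run on simulated reads with known changes between GDM and Lean only, and the outcome is not given here. That simulation held no library that stood apart and no change by offspring diet, so it does not bear on the other comparisons. Alternatives were a pseudocount of 1, no filter, values as deposited, TMM factors, a replicate block, edgeR 4.0.16, DESeq2 1.42.0 and leaving out each library. The members and lists were chosen with earlier results of these data known. Values in every library are given for members with the 5 smallest p in any comparison, for related lists up to 3 genes, and for likeness the 3 closest pairs.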

Additional observations from a re-analysis of the deposited data

How the results depend on the processing

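The number of members called was 0 in all 133 alternative fits over the 7 comparisons, and the 35 named differences kept their direction and side of the threshold in 665 of 665 refits. These 35 had been picked for the smallest p in each comparison, and the refits reused most or all libraries. Few reversals could therefore occur, so this count says little about steadiness. The size of the 35 differences was less steady: 17 of the 35 moved by more than 1.5 times in at least 1 fit with a library left out, and 17 in the values as deposited. Without scaling, the median of all models moved to 0.11 for both averaged comparisons. The member median was then 0.134 for GDM against Lean, 0.0225 for HFS against LF, 0.117 for GDM-LF against Lean-LF, 0.181 for GDM-HFS against Lean-HFS, 0.0025 for Lean-HFS against Lean-LF and 0.0543 for GDM-HFS against GDM-LF; by construction these values carry that shift. Leaving out each library gave member medians, in that order, from -0.0005 to 0.0577, -0.103 to -0.049, -0.0269 to 0.0146, 0.0271 to 0.0995, -0.146 to -0.0871 and -0.0673 to 0.0073, and from 0.0335 to 0.134 for the interaction.

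Over all genes, 8 were called for GDM against Lean, 13 without scaling, 8 with edgeR, 153 with DESeq2, and 6 to 20 with a library left out (20 without Lean-HFS 3). For HFS against LF, 0 were called, 31 with DESeq2, and 0 to 0 with a library left out. For GDM-LF against Lean-LF there were 4, 17 with DESeq2 and 2 to 6; for GDM-HFS against Lean-HFS 2, 49 with DESeq2 and 2 to 4; for Lean-HFS against Lean-LF 0, and 0 to 3 (3 without Lean-LF 3). For GDM-HFS against GDM-LF there were 0, 7 with DESeq2 and 0 to 1. The cause of these differences was not tested.

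With the replicate number as a block, 1 gene that is not a member was called for GDM-HFS against GDM-LF. The number of members called stayed at 0 in every comparison. The labels do not say whether libraries of the same number share a litter or batch, and this was not tested. The correlation of deviations ran from -0.0985 to 0.115 for the 18 same-number pairs. For the 36 different-number pairs it ran from -0.132 to 0.199, while 8 of 12 libraries correlated best with a library of their own number.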

Other observations

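Several genes outside the list had their most extreme value in Lean-HFS 2, the library where 17 members were lowest. Myh6, the fast cardiac myosin heavy chain, was at 28979 scaled reads there and at 62587 to 102567 in the other 11 libraries. Cardiac troponin I, Tnni3, was at 5188 against 7016 to 10626. The skeletal actin gene Acta1 was at 5794 against 586 to 2519.7, and Xirp2, an intercalated disc actin-binding protein, at 14365 against 3976 to 7082. Ankrd1 was at 13944 against 6973 to 11706, the natriuretic peptide gene Nppb at 644 against 208 to 381, and the collagen gene Col1a1 at 1770.0 against 746 to 1440.4. Myh7, Myl2 and Cryab, looked at alongside these, lay within the range of the other 11 libraries there. They were at 31877 against 12119 to 38371, at 4031 against 2995 to 5393, and at 5249 against 3892 to 5909. All of these genes were chosen after their values had been seen.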
